A study of Mus musculus with 36 samples.

Results

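Some transcripts of mouse embryonic fibroblasts had lost at least 50% of their ribosome footprints at 600 mOSM and held more of them at the stronger 700 mOSM. The 150 members described here were chosen by their footprint values, as those with the highest ratio of the mean level at 700 mOSM for 2 h to the mean level at 600 mOSM for 2 h. To enter the ranking, a transcript needed a mean of at least 10 RPKM (reads scaled by the length of the coding sequence and by the library's total) in unstressed cells, at most 50% of that but more than 0 at 600 mOSM, and a value in both libraries at 700 mOSM for 2 h. Of 11037 transcripts with a footprint value in any library, 1261 met these conditions. The 1111 that met them without reaching the top 150 serve below as the closest comparison. The footprints of unstressed cells, of 600 mOSM for 2 h and of 700 mOSM for 2 h chose the members, so these values are given as a description and support nothing.

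The cells were fibroblasts of the mouse strain C57BL/6J, connective tissue cells grown from embryos, with no genetic change named in the labels. Hyperosmotic stress was made by adding sorbitol, a sugar alcohol, to the medium. Cells spent 2 h at 500, 600 or 700 mOSM, or 15 min at 700 mOSM. From either exposure to 700 mOSM, further cells were returned and sampled 15 min and 2 h later, which the labels call recovery. All were set against unstressed cells, labelled Normal Condition. Each of the 9 conditions had 2 ribosome footprint libraries and 2 libraries of cytoplasmic RNA. The labels give no separate cultures or dates, and in bulk cultures fewer cells and less RNA per cell cannot be told apart.

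Hyperosmotic medium draws water out of cells and makes them shrink. Under such stress, cells restrict the initiation of translation, so that few ribosomes are loaded on most mRNAs, and ribosomes already on an mRNA either finish the protein or stay in place. Ribosome profiling sequences the stretch of mRNA that each ribosome covers. A footprint level therefore reports how many ribosomes sit on a coding sequence, and a high level can come from frequent starts or from slow elongation. Since RPKM is relative to each library's own total, it shows how footprints were shared among transcripts and not how much translation was left.

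Only Ensembl transcript identifiers stand in the deposited lists, so the members are described here by their rank in the ratio, their coding length and their values. Footprint libraries held 744700 to 9108030 reads by the totals behind their values, and the 700 mOSM libraries without recovery were the shallowest. RNA libraries held 6851961 to 55262422 reads. Within each condition, reads of both footprint libraries agreed nearly within sampling noise (chi-square divided by its degrees of freedom, 1.005 to 1.085, where noise alone gives about 1), and such a pair was counted as 1 sample. Footprint values thus have no replicate error and no test. RNA has n = 2 per condition. For RNA the same chi-square measure was 3.44 to 47.1, so its pairs differed beyond sampling noise. It was highest in unstressed cells, which nearly all RNA comparisons share, and next highest at 700 mOSM for 2 h (23.0). In the RNA test, unstressed libraries had the lowest weight, 0.32. The file names of the RNA libraries labelled 15 min of stress with 2 h of recovery, and of those labelled 2 h of stress with 15 min of recovery, give the stress and recovery times the other way round. The labels are followed here, and RNA results of these 2 groups are written as labelled. Which assignment is right was not tested. If the file names are right, the RNA results of each group belong to the recovery of the other.

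The median member's footprints were below the unstressed level in every stressed condition, and lowest at 600 mOSM. After 15 min at 700 mOSM, 17 members were above their own unstressed level in RPKM as deposited. The median member had 24.5 RPKM in unstressed cells, 5.13 RPKM at 500 mOSM, 2.02 RPKM at 600 mOSM and 8.33 RPKM at 700 mOSM, the last 3 after 2 h. Expressed as a share of each member's own unstressed level, the medians were 19.9% at 500 mOSM, 7.50% at 600 mOSM and 32.6% at 700 mOSM. Transcripts that met the entry conditions without being chosen had medians of 59.5%, 26.6% and 19.7% of their unstressed level in the same conditions. At 700 mOSM for 2 h, 34 of the 150 members were above 50% of their unstressed level and 10 were above the whole of it. By RPKM as deposited, the phrase "kept at 700" therefore describes few of them: most held more footprints than at 600 mOSM and fewer than without stress. How many it describes depends on scaling. With libraries scaled to each other as described below, 77 members were at least 2-fold lower than in unstressed cells, against 45.5% of all 8849 transcripts tested. On that scale 131 members were below their unstressed level, and the median log2 difference was -1.03.

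**Figure D1:**
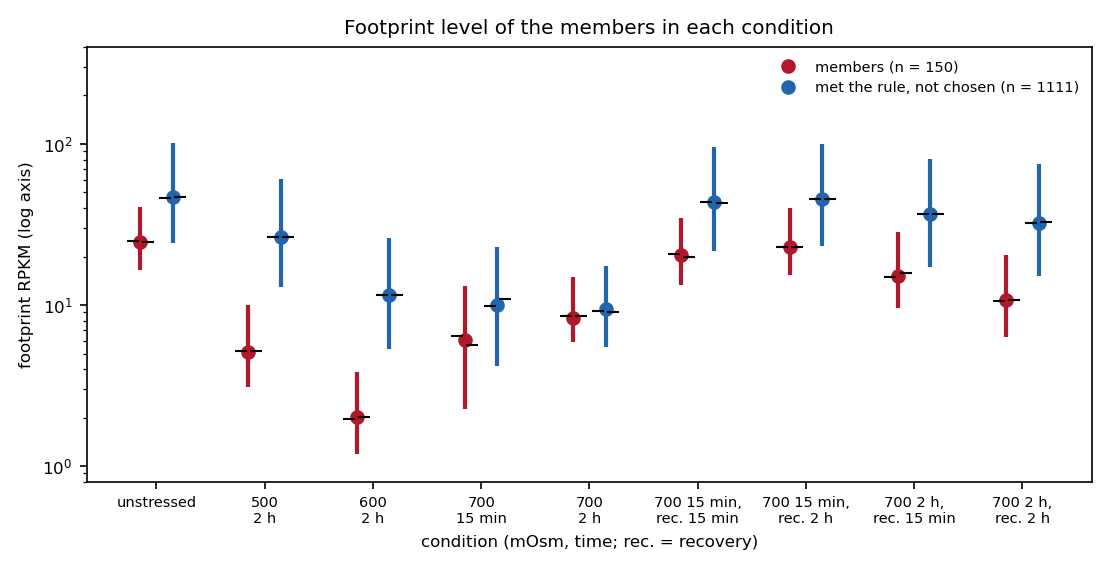
Footprint level (RPKM, log axis) of the 150 members and of the 1111 transcripts that met the entry conditions without being chosen, in each of the 9 conditions. Points are medians over transcripts of the mean of 2 libraries, vertical lines run between the quartiles, and black ticks are the medians in each library. The median member lay at 24.5 RPKM in unstressed cells, 2.02 RPKM at 600 mOSM and 8.33 RPKM at 700 mOSM for 2 h.

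The ratio of 700 to 600 mOSM had a median of 4.11 over the members, with quartiles of 3.28 and 5.49. The member at rank 1, of 522 codons, had a ratio of 38.4. Its footprint levels were 10.2 and 10.8 RPKM in unstressed cells. At 600 mOSM it had 1.42 RPKM in 1 library and no listed value in the other, and at 700 mOSM for 2 h it had 30.9 and 23.6 RPKM. It was thus above its unstressed level at 700 mOSM in both libraries. At 700 mOSM for 15 min neither library listed it, and at 500 mOSM it had 1.48 and 1.92 RPKM. The member at rank 3, of 957 codons, rested on more reads: 75 and 99 reads gave 35.1 and 37.5 RPKM at 700 mOSM for 2 h, against 18 and 19 reads and 2.32 and 2.89 RPKM at 600 mOSM. In unstressed cells it had 16.6 and 13.9 RPKM, less than at 700 mOSM for 2 h. At the edge of the choice, rank 150 had a ratio of 2.752 and the next transcript, outside it, one of 2.748.

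Few reads stood behind most of these ratios. The 2 libraries together gave a median of 794 reads per member in unstressed cells, 20 reads at 600 mOSM and 26.5 reads at 700 mOSM for 2 h. At 600 mOSM, 73 members had under 20 reads, and 26 members were listed in only 1 of the 2 libraries. Nearly all listed footprint values rested on at least 5 reads, so an unlisted transcript may have had a few footprints or none. When the missing library of those 26 members was set to 4 reads, the ratio of rank 1 became 21.5 and 149 of the 150 were chosen again. When the rule was applied to the replicate 1 libraries alone, 112 of the 150 were chosen again, and the transcripts so chosen had a median ratio of 3.22 in the replicate 2 libraries, against 4.11 in the libraries that chose them; 17 of them, unlisted at 600 mOSM in replicate 2, have no ratio there. With the replicate 2 libraries alone, 102 were chosen again, and the median ratio was 3.27 in the replicate 1 libraries, against 3.73 in the choosing ones, with 9 unlisted.

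The members were also lower than most transcripts at 500 mOSM, a condition that the rule did not use. On the log2(scaled RPKM + 1) scale, where each library is divided by its median ratio over abundant transcripts, the median difference from unstressed cells was -2.21 for the members and -0.80 for the transcripts not chosen. It was -0.13 over the 8849 transcripts whose scaled values averaged 2 or more, a filter that all 150 members passed. At least 2-fold lower levels were found for 146 members, against 16.6% of all transcripts tested, and no member was 2-fold higher, against 0.768%. That comparison shares its unstressed libraries with the rule. Set against 2 h of recovery from the 15 min exposure, which the rule did not use, 140 members were at least 2-fold lower at 500 mOSM, against 16.4% of all transcripts tested, with a median difference of -2.11. Every one of the 150 members lay below that recovery level.

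The member with the highest footprint level in unstressed cells, of 323 codons, shows this order. It had 1127 and 1132 RPKM in unstressed cells, 116 and 121 RPKM at 500 mOSM, 88.5 and 84.4 RPKM at 600 mOSM and 297 and 322 RPKM at 700 mOSM, the stresses lasting 2 h. All stressed libraries lay below the unstressed ones, and the 700 mOSM libraries above those at 500 and 600 mOSM. Its RNA did not pass the test at 700 mOSM for 2 h (limma, adjusted p = 0.18), with 699 and 679 FPKM (fragments scaled by transcript length and library total), against 704 and 669 FPKM in unstressed cells. The next by that footprint level, of 362 codons, had 572 and 567 RPKM in unstressed cells, 52.7 and 44.3 RPKM at 500 mOSM, 27.6 and 28.6 RPKM at 600 mOSM and 122 and 156 RPKM at 700 mOSM. Of these 4 conditions only 500 mOSM was not used by the rule, so the order of the others is description.

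**Figure D2:**
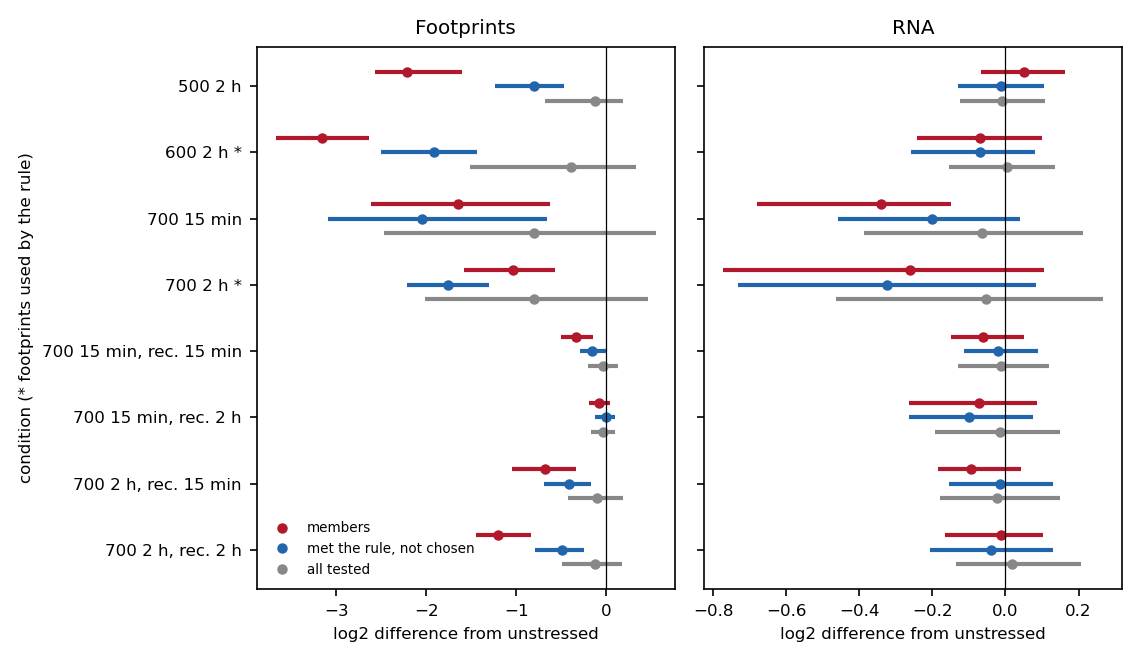
Log2 differences from unstressed cells for footprints (left, scaled RPKM + 1) and RNA (right, scaled FPKM + 1; the 2 horizontal axes differ in range) in 8 conditions. Points are medians and lines run between the quartiles, for the members, the transcripts that met the entry conditions without being chosen, and all transcripts tested; asterisks mark conditions whose footprints the rule used. At 500 mOSM the members' median was -2.21 for footprints and 0.05 for RNA.

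After 15 min at 700 mOSM, the members were spread more widely than in any other condition, and they split by coding length. At least 2-fold lower levels were seen for 97 members, against 46.9% of all transcripts tested, and at least 2-fold higher levels for 12 members, against 17.2%. The transcripts not chosen had a median difference of -2.05, against -1.65 for the members. On the scaled measure, all 13 members of more than 1600 codons were above their unstressed level, with a median difference of 1.89, and the level at least doubled in 10. In RPKM as deposited not all were: members of 1889 and 2270 codons lay below it. The first had 11.7 and 11.9 RPKM, against 12.6 and 12.8 RPKM in unstressed cells. Of the 31 members of up to 400 codons, 29 were at least 2-fold lower, and of the 65 members of more than 400 and up to 800 codons, 59 were. The rank correlation between coding length and this difference was 0.71 over the 150 members, which share the same libraries. Its counterpart at 500 mOSM was 0.22. The same order held among the transcripts not chosen, whose 66 longest had a median of 1.76 and whose 312 of up to 400 codons had one of -2.78, so it was not particular to the members. There were 23 members unlisted in both libraries and 28 listed in only 1, and all 23 had at most 800 codons. Listed values rested on at least 5 reads here, which is a higher RPKM for a short coding sequence than for a long one. The limit of listing thus depends on length itself, and its part in the length order was not tested. The 2 libraries together gave a median of 20 reads per member.

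**Figure D3:**
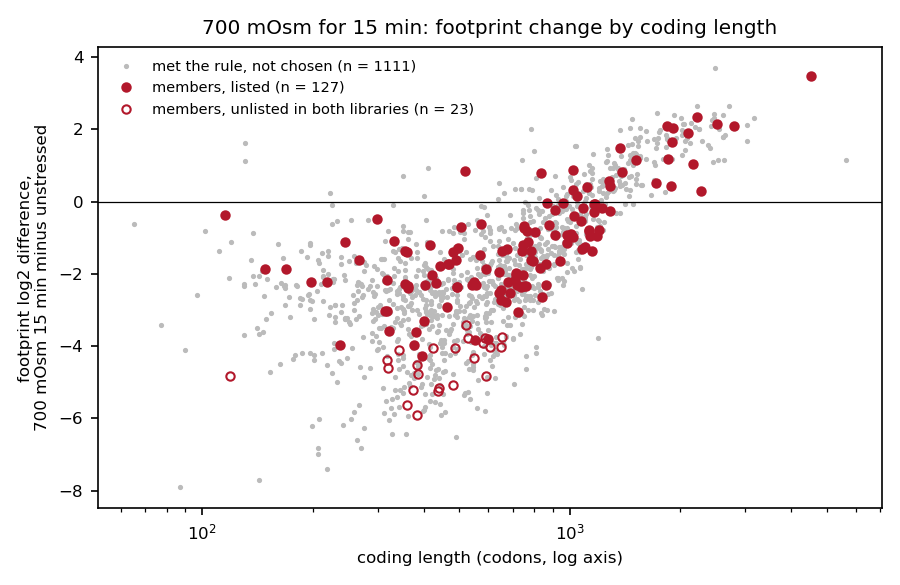
Footprint log2 difference (scaled RPKM + 1) between 700 mOSM for 15 min and unstressed cells, against coding length in codons (log axis). Red points are members, open where unlisted in both libraries at 700 mOSM for 15 min; grey points are the 1111 transcripts not chosen. The 13 members of more than 1600 codons lie above 0.

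ENSMUST00000049149, the longest member with 4546 codons, was the extreme case. Its footprint level was 162 and 162 RPKM at 700 mOSM for 15 min, against 20.7 and 20.4 RPKM in unstressed cells, from 1838 and 2386 reads against 2043 and 2111 reads. At 700 mOSM for 2 h it had 14.5 and 16.6 RPKM, and at 600 mOSM 2.25 and 2.31 RPKM. Its RNA did not pass the test at 700 mOSM for 15 min (limma, adjusted p = 0.49), with 34.3 and 35.0 FPKM, against 29.7 and 38.5 FPKM in unstressed cells. At 700 mOSM for 2 h its RNA rose, with 58.7 and 63.1 FPKM, by 0.92 ± 0.12 on the log2 scale (SE; limma, adjusted p = 8.5e-06, n = 2 per group). At 600 mOSM, where its footprints were scarcest, its RNA rose by 1.20 ± 0.10 (SE; limma, adjusted p = 1.4e-06), with 78.4 and 78.7 FPKM. At 600 mOSM its RNA was thus above, and its footprints below, the unstressed libraries.

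RNA of the members changed little at 500 and 600 mOSM, where their footprints were lowest. At 500 mOSM, 9 members rose and 5 fell in RNA by limma at an adjusted p under 0.05, against 1.55% and 1.89% of the 9275 transcripts tested. At 600 mOSM, 6 rose and 31 fell, against 3.87% and 9.11% of all transcripts tested. The transcripts not chosen had a like share at 600 mOSM, with 19.7% that fell, against 20.7% of the members. The median RNA difference of the members was 0.05 at 500 mOSM and -0.07 at 600 mOSM on the log2 scale. Without unstressed replicate 1, 2 members rose and 3 fell at 500 mOSM, and 3 rose and 11 fell at 600 mOSM. Without unstressed replicate 2, 3 fell at 500 mOSM and 13 rose at 600 mOSM, and without replicate 2 at 500 mOSM, 4 rose and 3 fell there.

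At 700 mOSM, RNA that fell was found for 65.3% of the members after 15 min and 48.7% after 2 h. After 15 min, 98 members fell and 10 rose, against 30.5% and 19.3% of all transcripts tested, and 46.5% of the transcripts not chosen fell, against 65.3% of the members. After 2 h, 73 members fell and 19 rose, against 31% and 18.7% of all transcripts tested. There the share of the transcripts not chosen that fell was 52.8%, against 48.7% of the members. The median RNA difference from unstressed cells was -0.34 after 15 min and -0.26 after 2 h. Without unstressed replicate 1, 2 members rose after 15 min and 10 after 2 h.

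In the direct comparison of 700 with 600 mOSM at 2 h, RNA went the other way from the footprint ratio that defined the members. RNA of 77 members fell and that of 18 rose at 700 mOSM relative to 600 mOSM, against 33% and 17.5% of all transcripts tested. The median difference was -0.23 for the members and -0.25 for the transcripts not chosen. Without replicate 2 at 700 mOSM, 9 members rose, and with FPKM values left unscaled, 8 did. The member at rank 1 had 17.7 and 20.5 FPKM in unstressed cells, 15.5 and 15.3 FPKM at 600 mOSM and 12.2 and 11.9 FPKM at 700 mOSM for 2 h.

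Length also ordered the RNA changes. The 73 members that fell in RNA at 700 mOSM for 2 h had a median transcript length of 4828 nt, and the 19 that rose had one of 2545 nt. Outside the coding sequence the medians were 1989 nt and 714 nt. Over all transcripts tested, the same medians of transcript length were 4311 nt for the 2876 that fell and 1679 nt for the 1730 that rose, so this was shared with the other transcripts. The share of the unstressed footprint level left at 700 mOSM for 2 h had a median of 32.2% in the members whose RNA fell and 47.8% in those whose RNA rose. It was 33.1% in the 58 members whose RNA did not pass, so members whose RNA fell were close to these.

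**Figure D4:**
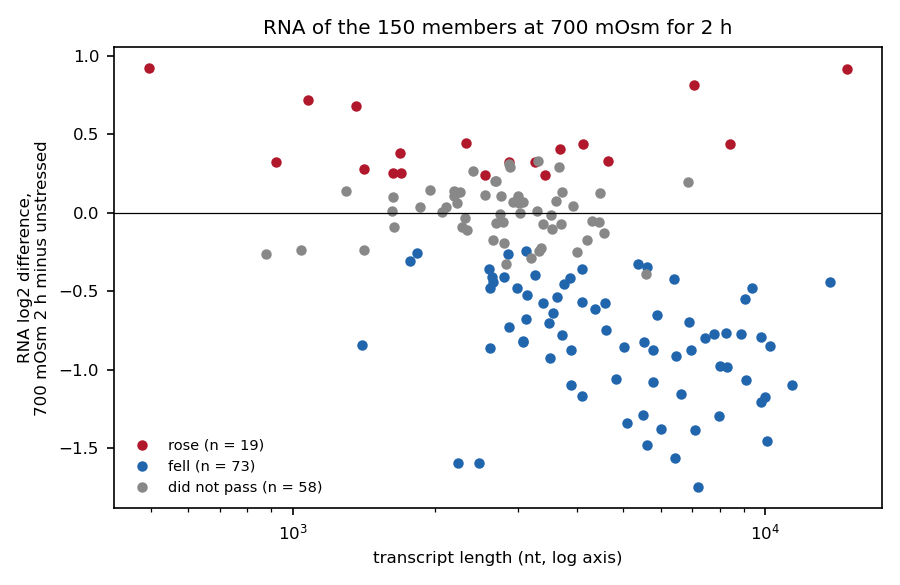
RNA log2 difference (scaled FPKM + 1) between 700 mOSM for 2 h and unstressed cells for each of the 150 members, against transcript length (nt, log axis). Colours show members that rose (19), fell (73) or did not pass limma's adjusted p of 0.05 (58). Members that fell had a median length of 4828 nt.

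ENSMUST00000008036, the shortest member with 115 codons, had the largest RNA rise at 700 mOSM for 2 h. It had 1552 and 1457 FPKM at 700 mOSM for 2 h, against 770.8 and 927.8 FPKM in unstressed cells, a rise of 0.92 ± 0.12 on the log2 scale (SE; limma, adjusted p = 1.4e-05, n = 2 per group). Both stressed libraries lay above both unstressed ones. Its footprints were at 467 and 507 RPKM at 700 mOSM for 2 h, against 477 and 459.6 RPKM in unstressed cells, so the ranges overlapped in RPKM as deposited. Scaling divides the 700 mOSM libraries by 0.78 and 0.77 and the unstressed ones by 1.08 and 1.07. Once scaled, both 700 mOSM libraries lay above both unstressed ones. At 500 mOSM it had 166 and 146.9 RPKM, at 600 mOSM 126 and 109 RPKM, and 2 h after the end of the long exposure 149.9 and 140.3 RPKM.

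ENSMUST00000165952, of 1130 codons, had the largest RNA fall at 700 mOSM for 2 h. Its RNA was at 5.99 and 6.72 FPKM, against 26.7 and 23.8 FPKM in unstressed cells, and the difference was -1.75 ± 0.11 on the log2 scale (SE; limma, adjusted p = 1.3e-08, n = 2 per group). Its footprints were at 6.73 and 5.45 RPKM, against 22.7 and 22.3 RPKM in unstressed cells, so that RNA and footprints were both low. ENSMUST00000117085, of 321 codons, followed with an RNA difference of -1.60 ± 0.14 (SE; limma, adjusted p = 1.9e-07). It had 7.32 and 7.50 FPKM at 700 mOSM for 2 h, against 25.6 and 26.4 FPKM in unstressed cells. Its footprint values rested on 8 and 7 reads at 700 mOSM for 2 h and on 0 listed and 6 reads at 600 mOSM.

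In unstressed cells and 15 min after release from the 15 min exposure, the members had lower footprint levels relative to their RNA than other transcripts. After 15 min of recovery from the 15 min exposure, a condition that the rule did not use, the scaled footprint level relative to the scaled RNA level had a median log2 value of -0.84 for the members, 0.31 for the transcripts not chosen and 0.73 for all transcripts tested. Values below 0 were found for 84% of the members and 23.4% of all transcripts tested. Footprints are scaled by coding length and RNA by transcript length, so 0 has no meaning of its own and only the sets can be compared. In unstressed cells, whose footprints the rule used, the same medians were -0.63, 0.47 and 0.73. The members' RNA was abundant, with a median of 37.9 FPKM in unstressed cells, against 33.2 FPKM for the transcripts not chosen. Coding sequences of the members had a median of 672 codons, against 592 for the transcripts not chosen and 466 for all listed transcripts.

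The footprint differences were mostly not matched by RNA. At 500 mOSM, the footprint difference minus the RNA difference, which is the change in translational efficiency, had a median of -2.21 over the members, and 149 members were at least 2-fold lower, against 16.8% of the 8446 transcripts with both measures. After 2 h of recovery from the 2 h exposure, 95 members were at least 2-fold lower, against 7.54%, with a median of -1.20. At 700 mOSM for 15 min, 83 members were at least 2-fold lower, against 45%, and 18 were at least 2-fold higher, against 14.9%. There the transcripts not chosen were lower still: 66.7% of them were at least 2-fold lower, against 55.3% of the members. At 500 mOSM 36.3% of the transcripts not chosen were at least 2-fold lower, and after 2 h of recovery from the 2 h exposure 10.9% were. After 15 min of recovery from the 15 min exposure, 3 members were at least 2-fold lower, against 0.485%, with a median of -0.31. These differences share the unstressed footprints with the rule.

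After release from the 15 min exposure, the members were close to their unstressed level. The median member had 20.4 RPKM after 15 min of recovery and 22.9 RPKM after 2 h, which were 79.8% and 92.1% of the unstressed level. After 2 h no member was 2-fold higher or lower than in unstressed cells, where 0.667% and 0.249% of all transcripts tested were. After 15 min, 2 members were at least 2-fold lower, against 0.52% of all transcripts tested, and none was 2-fold higher, against 0.61%. RNA of 7 members fell and that of 3 rose after 15 min, against 2.59% and 4.39%. In the RNA libraries labelled 2 h for this recovery, RNA of 32 fell and that of 8 rose, against 8.37% and 4.92%. Without unstressed replicate 1, these RNA counts were 3 that fell after 15 min, and 11 that fell and 1 that rose in the libraries labelled 2 h. Without unstressed replicate 2, 1 fell after 15 min. Without replicate 2 of the recovery group itself, 3 fell after 15 min and 4 rose in the libraries labelled 2 h.

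Release from the 2 h exposure went differently, with fewer of the members' footprints at the later time. The median member had 15.1 RPKM after 15 min and 10.8 RPKM after 2 h of recovery, which were 62.3% and 40.3% of the unstressed level. At least 2-fold lower levels than in unstressed cells were found for 45 members after 15 min, against 5.1% of all transcripts tested, and for 97 members after 2 h, against 7.14%. No member was 2-fold higher at either time, where 1.83% and 3.88% of all transcripts tested were. Set against 2 h of recovery from the short exposure, with no library that the rule used, 88 members were at least 2-fold lower after 2 h of recovery from the long one, against 6.18%. The median difference in that comparison was -1.14 for the members and -0.49 for the transcripts not chosen.

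Between the 2 recovery times of the long exposure, the median difference, 2 h minus 15 min, was -0.48 for the members, -0.07 for the transcripts not chosen and -0.04 for all transcripts tested. At least 2-fold lower levels at 2 h were found for 19 members, against 2.85% of all transcripts tested, and at least 2-fold higher levels for 3, against 4.43%. For the short exposure the median difference was 0.28 for the members and 0.14 for the transcripts not chosen. There, 5 members were at least 2-fold higher at 2 h, against 0.531% of all transcripts tested, and none was 2-fold lower, against 0.452%. With RPKM values as deposited, 2 were 2-fold higher. Counted over every pair of libraries, 108 members were lower at 2 h than at 15 min after the long exposure, against 40.5% of all transcripts tested, and 108 were higher after the short one, against 34.8%. Both held for 70 members, against 9.55%. The member at rank 1 had 3.18 and 4.00 RPKM after 2 h of recovery from the long exposure and 9.95 and 10.2 RPKM after 15 min, with no overlap. After the short exposure it had 11.8 and 10.3 RPKM at 2 h and 12.5 and 12.0 RPKM at 15 min.

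**Figure D5:**
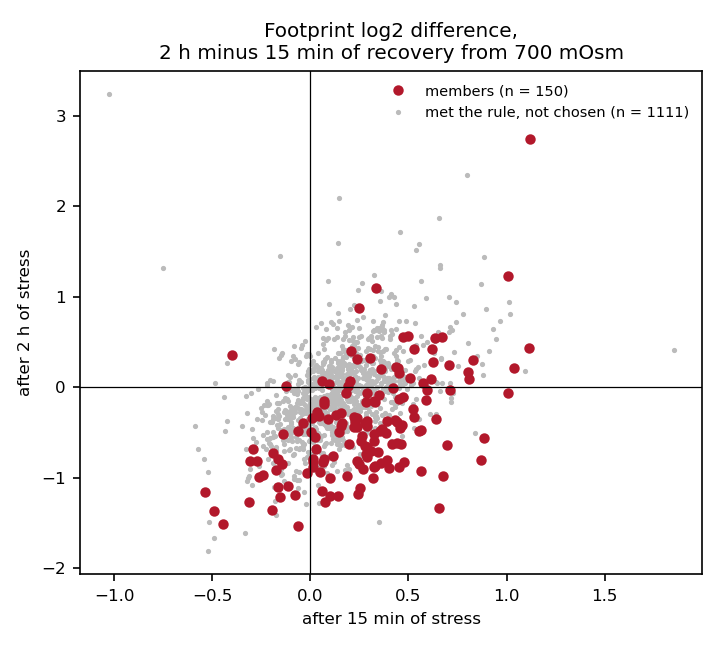
Footprint log2 difference (scaled RPKM + 1) between 2 h and 15 min of recovery from 700 mOSM, after the 15 min exposure (horizontal) and the 2 h exposure (vertical), for the 150 members in red and the 1111 transcripts not chosen in grey. The members' medians were 0.28 after the short and -0.48 after the long exposure.

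The member with the highest unstressed footprint level, of 323 codons, was likewise lower at 2 h than at 15 min of recovery from the long exposure, but above its unstressed level at both times. It had 1127 and 1132 RPKM in unstressed cells, 2085 and 2157 RPKM after 15 min and 1972 and 1984 RPKM after 2 h of recovery from the long exposure. All 4 recovery libraries lay above both unstressed ones. A member of 385 codons went against this course. It had 64.7 and 62.2 RPKM in unstressed cells, 15.2 and 18.6 RPKM after 15 min and 113 and 114 RPKM after 2 h. Its RNA rose by 1.39 ± 0.07 on the log2 scale after 2 h of recovery from the long exposure (SE; limma, adjusted p = 3.8e-10, n = 2 per group), with 167 and 161 FPKM, against 61.1 and 65.3 FPKM in unstressed cells. At 700 mOSM for 2 h the RNA of that member fell (limma, adjusted p = 2.7e-09), with 19.4 and 18.5 FPKM. A member of 342 codons had the largest RNA rise at that recovery time, 2.45 ± 0.19 (SE; limma, adjusted p = 1.1e-07), with 42.6 and 51.5 FPKM, against 6.23 and 10.0 FPKM in unstressed cells.

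RNA of the members as a whole was near its unstressed level after the long exposure had ended. After 2 h of recovery, 25 members fell and 14 rose, against 8.28% and 13.9% of all transcripts tested, and the median difference was -0.01. Without unstressed replicate 1, 4 members fell and 4 rose. Without replicate 2 of that recovery group, 9 rose. In the group labelled 2 h of stress and 15 min of recovery, 19 fell and 4 rose, against 6.27% and 8.09%, with a median of -0.10. Without unstressed replicate 2, 1 fell there and 2 rose, without unstressed replicate 1, 2 rose, and without replicate 2 of that group, 7 fell and 2 rose.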

How the data were processed

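Ribosome footprints and cytoplasmic RNA of mouse embryonic fibroblasts were sequenced in 36 libraries. The authors deposited 1 list per library, with RPKM values for footprints and FPKM values for RNA, per the file headers and names; per the submitters' processing notes, the tools included cutadapt, Bowtie and STAR, and the build was GRCm38. The counting method is not given in the sources used here. Coding length, transcript length and whole reads were solved from the steps of the deposited values. Tested on simulated data, this returned at least 99.7% of the footprint and 99.1% of the RNA read numbers of a library exactly. Reads carry no molecular identifiers, so read numbers give counting error only.

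Unlisted transcripts were set to 0. Libraries were scaled by the median ratio to the geometric mean over 4619 (footprints) or 5705 (RNA) transcripts. A scaled mean of 2 or more was required. Differences are of log2(scaled value + 1), so changes at low levels are understated. With values as deposited, the median difference over all transcripts tested was lower by 0.44 at 700 mOSM for 2 h and by 0.52 at 700 mOSM for 15 min than with scaling. RNA differences were tested by limma (version 3.58.1, R 4.3.3) in 1 fit over 18 libraries with 9 group means, a weight per group and a mean-variance trend, two-sided, with Benjamini-Hochberg adjustment over 9275 transcripts at 0.05. The error behind a p-value is the spread between the 2 libraries of a group, weighted and pooled over the 9 groups and drawn toward the trend. That spread may be technical. Footprints and translational efficiency, skipped for the 2 RNA groups whose file names go against their labels, are described without a test.

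The members and lists were chosen with earlier results of these data known. Members were to be named by extremes of the ratio, level, length, reads and RNA change. No name table used here covers them, so gene lists and cell type markers were not applied, and 4 identifiers are printed. Alternatives changed the scaling, pseudocount, filter, weights, model, replicates and rule.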

Additional observations from a re-analysis of the deposited data

Results flagged for a closer look

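The members' median footprint difference, 2 h minus 15 min of recovery, was 0.28 after the 15 min exposure and -0.48 after the 2 h exposure. The transcripts not chosen had medians of the same signs, 0.14 and -0.07. After the 2 h exposure, 108 of the 150 members were lower at 2 h than at 15 min in every pair of libraries, against 40.5% of all transcripts tested. After the 15 min exposure, 108 members were higher at 2 h than at 15 min in every pair, against 34.8% of all transcripts tested. For 70 members both held, against 9.55% of all transcripts tested. The difference between the 2 exposures was not tested, since the footprint libraries of a condition count as 1 sample.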

How the results depend on the processing

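Of 330 values under alternatives, 266 were within 1.5 times the reported count. The counts of members with at least 2-fold lower footprints at 500 mOSM, at 700 mOSM for 15 min and in both recoveries from the long exposure were, as were the members whose RNA fell at 700 mOSM; small RNA counts were not, and the cause was not tested. Counts are given as rose and fell.

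With voom on recovered reads, chosen after seeing the data because the planned TMM scaling was not run, RNA counts were 30 and 19 at 500 mOSM, 22 and 50 at 600 mOSM, 29 that rose at 700 mOSM for 2 h, 7 and 30 after 15 min of recovery from the short exposure, 18 and 56 in the group labelled 2 h, 9 and 33 in the group labelled 15 min of recovery from the long exposure, and 24 and 39 after its 2 h. With equal weights they were 17 and 14 at 500 mOSM, 12 that rose at 600 mOSM, 30 that rose at 700 mOSM for 2 h, and, in the first 3 recovery groups of that list, 5 and 22, 14 that rose, and 8 and 37. With the compared groups only they were 3 and 3 at 500 mOSM, 0 that fell 15 min after release from the short exposure (21 at an unadjusted p under 0.05 by limma), 4 and 17 in the group labelled 2 h, 5 that fell in the group labelled 15 min of recovery from the long exposure, and 9 and 16 after its 2 h. Without the filter, 16 fell 15 min after the short exposure and 8 rose after 2 h from the long one. With values as deposited, 12 rose at 700 mOSM for 2 h and 8 relative to 600 mOSM, 2 members were 2-fold higher in footprints at 2 h than at 15 min of recovery from the short exposure, and 1 was 2-fold lower in translational efficiency after its 15 min, where a pseudocount of 0.25 gave 5.

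Leaving out 1 library, with group weights kept and a lone library assumed to vary like the others, gave 2 to 10 and 3 to 5 at 500 mOSM, 3 to 13 and 11 to 28 at 600 mOSM, 2 to 9 and 73 to 98 at 700 mOSM for 15 min, 10 to 22 and 64 to 68 at 700 mOSM for 2 h, 9 to 12 and 58 to 71 for 700 against 600 mOSM, 2 to 4 and 1 to 6 after 15 min of recovery from the short exposure, 1 to 11 and 11 to 29 in the group labelled 2 h, 2 to 3 and 1 to 19 in the group labelled 15 min of recovery from the long exposure, and 4 to 16 and 4 to 23 after its 2 h. With 1 footprint library per condition, 4 to 4 members were 2-fold lower after 15 min of recovery from the short exposure.

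A replicate block gave 20 and 74 at 700 mOSM for 2 h and changed no other count by over 1.5 times. Same-numbered libraries did not deviate together throughout: the median of 36 correlations was 0.007, with a range of -0.31 to 0.31 and 6 above 0.1. Scaled values chose 143 members again, and requiring both 600 mOSM libraries 124. Depth limits the ratios: at 600 mOSM the median member had 20 reads.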
